A study of Mus musculus with 8 samples.

Results

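This account covers 43 heat shock proteins and co-chaperones in mouse Kupffer cells, the macrophages that line the liver sinusoids. The 43 genes were taken by symbol from a table of 55414 Ensembl genes. All 43 were found, and all 43 passed the filter on low counts. They were followed in 4 libraries made 2 h after CLP (caecal ligation and puncture), a surgical model of sepsis in which gut bacteria leak into the abdomen, and in 4 libraries made 2 h after sham surgery (Sham). Both groups were wild-type C57BL/6J mice, and in both the Kupffer cells were isolated from the liver by fluorescence-activated cell sorting before RNA extraction and bulk RNA sequencing. The study was set up to look at how sepsis leads to hemolysis, the bursting of red blood cells. Whether the libraries are from separate mice is not stated in the labels, and no age or sort gate was stated. P-values therefore measure the spread between these samples.

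Chaperones bind proteins that are not yet folded or have come unfolded, and release them for folding, transport or degradation. Hsp70 does this in cycles of ATP hydrolysis: J proteins hand it clients and start the hydrolysis, and nucleotide exchange factors (the Hsp110 and BAG proteins) release ADP and with it the client. Adaptors such as Stip1 pass clients from Hsp70 to Hsp90, chaperonins enclose clients in a chamber, and small heat shock proteins hold unfolded proteins against aggregation. Many of these genes carry heat shock elements, to which the factor Hsf1 binds after heat or other protein-damaging stress. In macrophages chaperones also serve the high protein output of an inflammatory response.

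The 8 libraries held 23311897 to 28724875 counts over genes. The groups separated on the first principal component (76.7% of the variance), and the second (9.99%) set CLP replicate 1 off from its group. Kupffer cell markers were abundant in both groups: the 12 markers summed to 38144 to 49279 normalised counts (CPM, read counts scaled by library size) in CLP and 29866 to 38319 CPM in Sham, with Clec4f at 8920.2 ± 899.7 CPM in CLP and 7374 ± 740.0 in Sham (SD, n = 4 each). Of the 12, 4 were higher in CLP, 0 were lower and 8 were not called. Markers of other cells also moved with the surgery. The 12 neutrophil markers summed to 239 to 582 CPM in CLP and 101 to 139 in Sham, and all 9 that could be tested were higher in CLP. The 9 platelet markers summed to 124 to 199 CPM in CLP and 15.5 to 28.4 in Sham, with 7 of 7 tested higher and Gp1bb at 0 in every library. The 7 B cell markers summed to 20.6 to 32.1 CPM in CLP and 8.65 to 14.0 in Sham, with 6 higher and 1 lower. Among 10 endothelial markers, 4 were higher and 6 were not called, with sums of 2328 to 2830 CPM in CLP and 1609 to 2034 in Sham. Most of the endothelial sum was 1 gene, Cdh5 (1914 ± 231 CPM in CLP and 1277 ± 140 in Sham), which was higher. The sum therefore mainly follows Cdh5, and which cells its reads came from was not tested. Stab2, the next in level, was not called (293 ± 11.3 CPM in CLP and 302 ± 13.9 in Sham). The 9 hepatocyte markers summed to 4792 to 6118 CPM in CLP and 3474 to 4796 in Sham, with 2 higher and 7 not called. The 7 stellate cell markers summed to 80.2 to 133 CPM in CLP and 66.6 to 78.9 in Sham, with 1 higher and 6 not called. The 7 monocyte markers summed to 225 to 370 CPM in CLP and 174 to 292 in Sham, with 1 of 5 tested higher and 4 not called. T and NK cell markers (9, none above the filter) stayed under 5 CPM in sum, and the 5 erythroid markers under 15 CPM, with Hba-a2 at 0. The 2 erythroid markers that could be tested were higher. The 5 dendritic cell markers summed to 7.78 to 12.7 CPM in CLP and 18.8 to 36.5 in Sham. Most of that sum was Clec9a (8.91 ± 2.31 CPM in CLP and 26.7 ± 7.43 in Sham), which was lower, while Xcr1, the other one tested, was not called (0.614 ± 0.243 CPM in CLP and 0.615 ± 0.104 in Sham). Each sum without overlap between the groups had the smallest p that 4 against 4 libraries allow (exact permutation test, two-sided, p = 0.0286, adjusted p = 0.0607 over 17 measures). The part of these other cells in the levels below was not tested, and in bulk RNA fewer cells of a type cannot be told apart from less RNA per cell.

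The chaperone genes changed in both directions after CLP. In CLP 12 of the 43 genes were higher and 14 were lower, at an adjusted p under 0.05 in edgeR's quasi-likelihood test with Benjamini-Hochberg adjustment over 14655 genes. These shares, 27.9% and 32.6%, lie near those of all genes tested, of which 24.9% were higher, 29.5% lower and 54.3% called in either direction. The stress-inducible Hsp70 genes Hspa1a and Hspa1b had the steepest falls, followed by the exchange factor Bag4 and the Hsp110 protein gene Hsph1. The steepest rises were those of the J protein genes Dnajb2, Dnaja2, Dnajb6 and Dnajb4, the exchange factor Bag3 and the adaptor Stip1. At least 2-fold, 6 of the 43 were called higher (14.0%) and 5 lower (11.6%), against 12.8% and 15.9% of all genes tested. The 4 CLP libraries were all above the 4 Sham libraries for 13 of the genes and all below them for 12, where the background over all genes was 22.1% and 27.3%. The median log2 fold change was 0.098 over the 43 genes and -0.040 over all genes. Summed over the 43 genes, the level was 5083 to 5599 CPM in CLP and 4185 to 4872 in Sham.

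**Figure D1:**
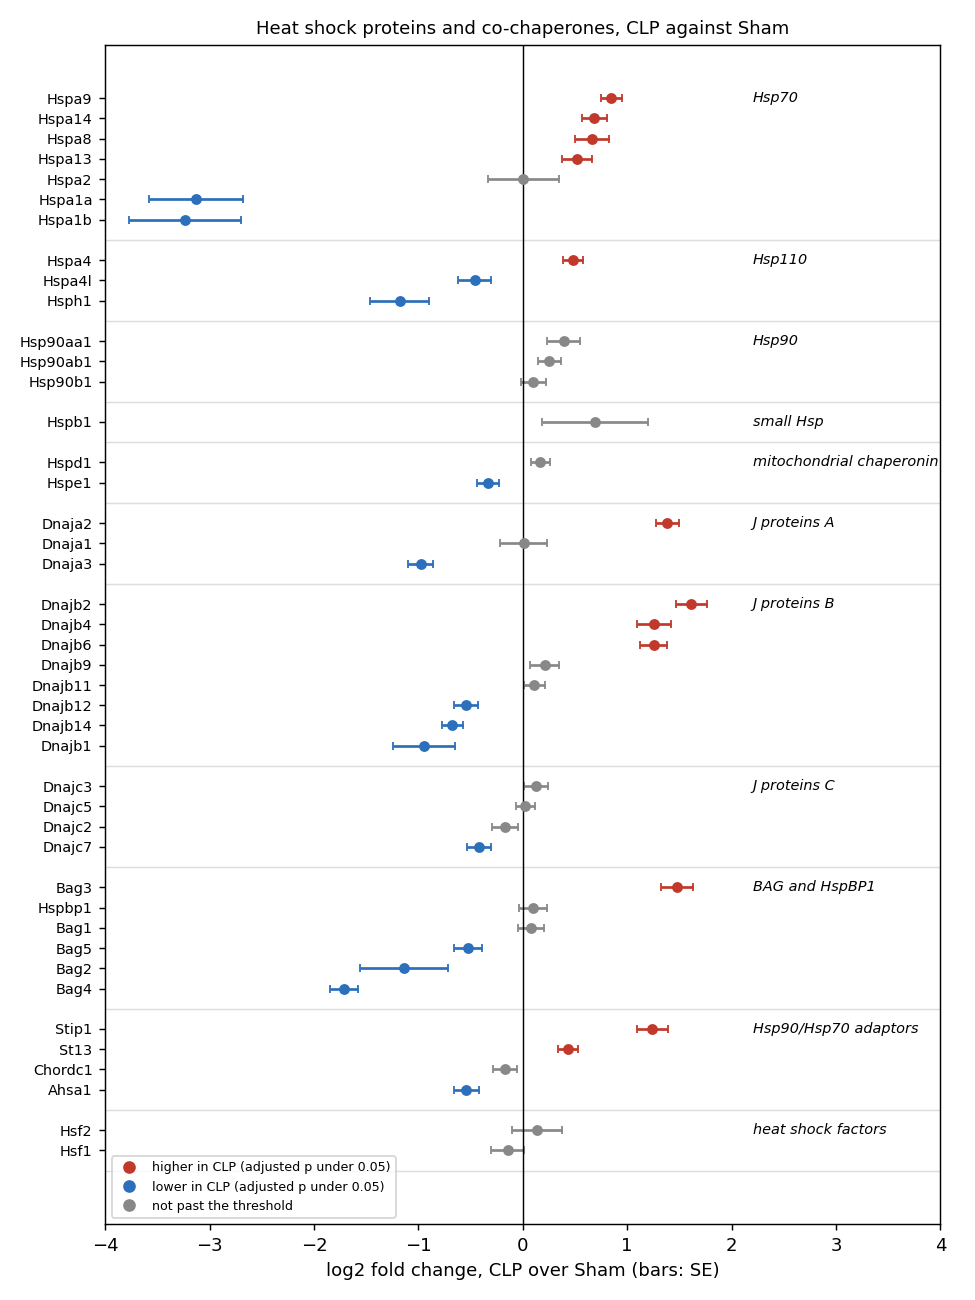
Log2 fold change of CLP over Sham for the 43 genes, grouped by chaperone class, with bars for the SE (4 libraries per group). Red points passed an adjusted p of 0.05 upward, blue points downward and grey points did not pass. Most classes hold both directions, and the fold changes run from -3.24 for Hspa1b to 1.61 for Dnajb2.

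Hspa1a (ENSMUSG00000091971) and Hspa1b (ENSMUSG00000090877) encode the inducible Hsp70 of the cytosol. They are near-identical neighbours, so reads can be divided between them in ways that say little about either. Hspa1a was at 14.3, 18.3, 10.1 and 6.92 CPM in CLP replicates 1 to 4, against 67.4, 112, 205 and 49.6 CPM in Sham replicates 1 to 4. Hspa1b was at 8.70, 16.9, 7.37 and 4.97 CPM in the CLP libraries, against 51.3, 89.5, 181 and 35.0 CPM in the Sham libraries. For both, every CLP library lay far below every Sham library, and Sham replicate 3 was the highest of all. The log2 fold change was -3.13 ± 0.45 (SE) for Hspa1a (edgeR adjusted p = 0.000225) and -3.24 ± 0.54 for Hspa1b (edgeR adjusted p = 0.000529). With the 2 rows added together, the pair stood at 23.0, 35.2, 17.5 and 11.9 CPM in CLP, against 119, 201, 387 and 84.6 CPM in Sham. The sum was 9.04-fold lower in CLP, a log2 fold change of -3.18 ± 0.49 (edgeR adjusted p = 0.000332), and without Sham replicate 3 the log2 fold change was -2.62 (edgeR adjusted p = 0.000503). Hspa1b alone moved most when that library was left out, to -2.63 (edgeR adjusted p = 0.000856). Hspa1a held 51.9% to 62.2% of the pair's reads in the 8 libraries. Exons of Hspa1a also overlap Gm20481 on the other strand (564 bases), a row with 1 count in CLP and 40 in Sham.

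The upstream stretches of the pair are shown because the paired heat shock element in them is identical. Promoters were searched from 250 bases before to 50 bases after each RefSeq transcript start on GRCm38.p6, for GAANNTTC or TTCNNGAA, each of which reads the same on both strands. The stretches lie at chr17:34972235-34972278 (minus strand) for Hspa1a and chr17:34959317-34959360 (minus strand) for Hspa1b, each at 122 to 79 bases before the start, and capitals mark the match.

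Hspa1a: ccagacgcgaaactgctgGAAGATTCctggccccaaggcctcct

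Hspa1b: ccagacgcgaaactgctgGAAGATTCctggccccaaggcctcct

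The printed letters of both copies are the same. A match of this kind is found in 15.1% of all 32851 promoter windows and is a description, not a binding site or a cause.

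The other Hsp70 genes did not follow the inducible pair. Hspa8 encodes Hsc70, the constitutive Hsp70 of the cytosol, which also strips clathrin from vesicles. Its level was 1177, 1189, 1091 and 894 CPM in CLP, against 700.3, 592, 889.7 and 566 CPM in Sham. The groups did not overlap, but only just: the lowest CLP library, replicate 4, was close to the highest Sham library, replicate 3. Hspa8 rose by 0.66 ± 0.17 on the log2 scale (edgeR adjusted p = 0.0062). Hspa9, the mitochondrial Hsp70 (mortalin), was at 235, 257, 224 and 242 CPM in CLP, against 146, 132, 129 and 126 CPM in Sham. Its libraries were tight within each group and far apart between them, and the log2 fold change was 0.85 ± 0.10 (edgeR adjusted p = 5.8e-05).

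Hspa14, an Hsp70 that works with the J protein Dnajc2 at the ribosome, had 42.3, 35.2, 31.9 and 33.9 CPM in CLP, against 24.0, 21.2, 20.0 and 24.1 CPM in Sham. All CLP libraries were higher, with a log2 fold change of 0.68 ± 0.12 (edgeR adjusted p = 0.000769). It shares 321 exon bases on the same strand with Gm45902, so reads there may be divided or dropped. Hspa13, a microsomal Hsp70 relative, had 86.2, 99.6, 88.0 and 83.8 CPM in CLP, against 78.3, 56.6, 49.1 and 65.3 CPM in Sham. The groups again stayed apart, though Sham replicate 1 came near the CLP range, and the log2 fold change was 0.52 ± 0.14 (edgeR adjusted p = 0.0101). Hspa2, the Hsp70 known for its role in sperm formation, was scarce and mixed between the groups. It had 5.24, 3.09, 1.83 and 2.15 CPM in CLP, against 2.93, 3.84, 3.42 and 2.11 CPM in Sham, a log2 fold change of 0.0062 ± 0.34 (edgeR adjusted p = 0.989). With libraries scaled by total counts alone, the calls of Hspa8 (log2 fold change 0.10, edgeR adjusted p = 0.618) and Hspa14 (0.13, edgeR adjusted p = 0.362) were lost, and Hspa13 turned to -0.029 (edgeR adjusted p = 0.851).

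The Hsp110 proteins, large relatives of Hsp70 that act as its exchange factors, went both ways. Hsph1 (Hsp105) had 21.4, 22.9, 19.2 and 26.4 CPM in CLP, against 42.3, 27.6, 83.7 and 50.4 CPM in Sham. CLP was uniformly low, while the Sham libraries were spread widely, with replicate 3 highest and replicate 2 close to the CLP range. Hsph1 fell by 1.18 ± 0.28 on the log2 scale (edgeR adjusted p = 0.0048), and without Sham replicate 3 the log2 fold change was -0.83 (edgeR adjusted p = 0.00704). Hspa4, the highest of these per kilobase of exon (38.7 CPM per kb in CLP, 27.7 in Sham), had 224, 213, 216 and 202 CPM in CLP, against 161, 151, 158 and 144 CPM in Sham. There was no overlap, and the log2 fold change was 0.48 ± 0.095 (edgeR adjusted p = 0.00155), although total-count scaling turned it to -0.074 (edgeR adjusted p = 0.509). Hspa4l, first known from testis, had 76.8, 58.3, 49.1 and 57.9 CPM in CLP, against 76.1, 84.3, 71.3 and 102 CPM in Sham. CLP replicate 1 lay inside the Sham range. The log2 fold change of -0.46 ± 0.16 (edgeR adjusted p = 0.0283) lost its call without any of CLP replicates 2, 3 and 4 or Sham replicates 2 and 4, with edgeR adjusted p = 0.0685 to 0.110. It also lost its call with DESeq2 size factors in edgeR (adjusted p = 0.0516) and after correcting for GC content (0.0561), and was kept with total counts (log2 fold change of -1.02, edgeR adjusted p = 0.000279).

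The Hsph1 promoter holds a paired heat shock element at chr5:149636344-149636387 (GRCm38.p6, minus strand), upstream of both of its RefSeq starts, and downstream of them a form with 3 units in a row (TTCNNGAANNTTC or GAANNTTCNNGAA), which is not printed. The upstream stretch is shown with the match in capitals for comparison with the Hspa1 pair.

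Hsph1: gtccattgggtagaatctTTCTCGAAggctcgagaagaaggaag

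The element is TTCNNGAA here, the other order of the same GAA and TTC units that the Hspa1 pair holds as GAANNTTC.

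Hsp90 transcripts were abundant in both groups. None of the 3 was called by edgeR, beside 54.3% of all genes tested. Of the 3, 2 had an unadjusted p under 0.05 in edgeR, and DESeq2 called 2 and voom 1. Hsp90aa1, the stress-inducible cytosolic form, had 120.4, 128, 120.3 and 142 CPM in CLP, against 87.2, 75.8, 132 and 94.7 CPM in Sham. Sham replicate 3 lay within the CLP range and the other Sham libraries lay below it. The log2 fold change was 0.39 ± 0.16 (edgeR adjusted p = 0.061), and without Sham replicate 3 it was 0.57 (edgeR adjusted p = 0.00322). Hsp90ab1, the constitutive cytosolic form, had 851, 759.6, 734 and 812 CPM in CLP, against 652, 612, 708 and 674 CPM in Sham. Its groups did not overlap, yet the log2 fold change of 0.25 ± 0.11 stayed short of the threshold (edgeR adjusted p = 0.0678). DESeq2 called both cytosolic forms higher, with an adjusted p of 0.0191 for Hsp90aa1 and 0.00133 for Hsp90ab1, and total-count scaling gave both a negative sign. Hsp90b1 (Grp94), the form of the endoplasmic reticulum, had 902, 829.7, 827 and 826 CPM in CLP, against 847, 770.4, 678 and 860.2 CPM in Sham. The groups overlapped, with a log2 fold change of 0.10 ± 0.12 (edgeR adjusted p = 0.481).

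Hspb1 (Hsp25 in mice), the small heat shock protein in the set, was barely transcribed, at 0.676 ± 0.376 CPM in CLP and 0.416 ± 0.179 in Sham (SD, n = 4 each), with a log2 fold change of 0.69 ± 0.51 (edgeR adjusted p = 0.268). The mitochondrial chaperonin is built from Hsp60 (Hspd1), which forms the chamber, and Hsp10 (Hspe1), which forms its lid. Hspe1 had 21.1, 18.7, 20.7 and 20.2 CPM in CLP, against 23.5, 25.2, 28.1 and 24.9 CPM in Sham. All CLP libraries were lower by a small margin, a log2 fold change of -0.33 ± 0.10 (edgeR adjusted p = 0.0185). The call was lost without CLP replicate 2 (edgeR adjusted p = 0.0589), Sham replicate 2 (edgeR adjusted p = 0.0502) or Sham replicate 3 (edgeR adjusted p = 0.0503). Hspd1 averaged 104 ± 5.40 CPM in CLP and 92.3 ± 5.51 in Sham (SD, n = 4 each), with a log2 fold change of 0.17 ± 0.094 (edgeR adjusted p = 0.153), and DESeq2 gave it an adjusted p of 0.0258. Exons of the 2 genes share 112 bases on opposite strands. The Hspd1 row held 8878 counts in CLP and 11805 in Sham, against 1729 and 3247 for Hspe1. The difference between the 2 genes was not tested. They lie head to head, and a stretch between their starts, chr1:55088041-55088094 on GRCm38.p6, is printed on the plus strand because it serves both promoter windows and carries overlapping heat shock elements, marked in capitals.

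Hspe1: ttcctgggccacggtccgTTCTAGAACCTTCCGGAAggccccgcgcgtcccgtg

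This run holds the 3-unit form of the element, TTCNNGAANNTTC or GAANNTTCNNGAA, which is found in 0.603% of all promoter windows.

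Among the 15 J proteins, 4 rose (26.7%) and 5 fell (33.3%), beside 24.9% and 29.5% of all genes tested. Those of class A resemble bacterial DnaJ most closely. Dnaja2, a cytosolic partner of Hsc70, had 246, 256, 229 and 244 CPM in CLP, against 107, 96.9, 83.5 and 86.7 CPM in Sham. Both groups were compact and lay far apart, at a log2 fold change of 1.38 ± 0.11 (edgeR adjusted p = 6.4e-06). Its close relative Dnaja1 averaged 55.9 ± 6.32 CPM in CLP and 55.7 ± 22.0 in Sham (SD, n = 4 each) without a call (log2 fold change of 0.0068 ± 0.23, edgeR adjusted p = 0.982), with Sham replicate 3 at 88.1 CPM and the other Sham libraries at 39.0 to 48.4 CPM. Dnaja3 (Tid1), the J protein of mitochondrial Hsp70, had 22.6, 19.9, 25.5 and 18.3 CPM in CLP, against 40.2, 45.7, 40.6 and 43.5 CPM in Sham. Every CLP library was below every Sham library, and Dnaja3 fell by 0.98 ± 0.12 on the log2 scale (edgeR adjusted p = 7.8e-05), while its partner Hspa9 rose. Its exons share 153 bases with Coro7 on the other strand, a row with 13559 counts in CLP and 24729 in Sham.

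Of the class B J proteins of the cytosol 3 rose and Dnajb1 fell. Dnajb2, which binds ubiquitin and steers clients to the proteasome, had 47.4, 48.4, 31.7 and 40.0 CPM in CLP, against 14.0, 12.2, 14.5 and 14.1 CPM in Sham. The Sham libraries were nearly equal, and the lowest CLP library was still well above them, for a log2 fold change of 1.61 ± 0.15 (edgeR adjusted p = 1.2e-05). Dnajb6, a suppressor of protein aggregation, had 60.4, 77.7, 58.1 and 67.0 CPM in CLP, against 32.3, 26.2, 26.8 and 25.1 CPM in Sham. Dnajb4, a heat-inducible cytosolic J protein, had 33.7, 35.3, 24.4 and 27.0 CPM in CLP, against 12.9, 10.1, 15.2 and 12.3 CPM in Sham. For neither gene did the groups overlap, and each had a log2 fold change of 1.25. The SE was 0.13 for Dnajb6 (edgeR adjusted p = 2.2e-05) and 0.16 for Dnajb4 (edgeR adjusted p = 0.000105). Dnajb1 (Hdj1), a heat-inducible partner of Hsp70 and a close relative of Dnajb4, ran the other way. Its level was 20.0, 20.8, 19.1 and 16.9 CPM in CLP, against 26.2, 30.7, 67.7 and 23.3 CPM in Sham. CLP was low throughout, and Sham replicate 3 stood far above the other Sham libraries. The log2 fold change was -0.95 ± 0.30 (edgeR adjusted p = 0.0212), against -0.48 without Sham replicate 3 (edgeR adjusted p = 0.0156), and the call was lost without CLP replicate 4 (edgeR adjusted p = 0.0554) and with no low count filter (edgeR adjusted p = 0.0726).

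The upstream stretches of 2 rising class B genes, Dnajb4 and Dnajb6, are given to set beside those of the falling Hspa1 pair and Hsph1. That of Dnajb4 lies at chr3:152193846-152193877 (minus strand) and that of Dnajb6 at chr5:29735834-29735882 (plus strand), both on GRCm38.p6, with heat shock elements in capitals.

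Dnajb4: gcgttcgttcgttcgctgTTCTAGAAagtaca

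Dnajb6: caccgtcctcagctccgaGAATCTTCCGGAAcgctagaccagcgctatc

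Dnajb4 holds the paired form alone. Dnajb6 holds the 3-unit form, as do Hsph1 and Hspe1 among the genes that fell.

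J proteins of the endoplasmic reticulum sit in its membrane or its lumen. Dnajb12, anchored in its membrane with the J domain in the cytosol, had 51.0, 41.7, 39.8 and 39.7 CPM in CLP, against 62.5, 67.3, 57.1 and 64.6 CPM in Sham. Dnajb14, its partner in clearing misfolded membrane proteins, had 59.5, 49.8, 53.8 and 53.2 CPM in CLP, against 78.8, 87.3, 93.7 and 85.7 CPM in Sham. Both lay lower in every CLP library, by 0.55 ± 0.11 (edgeR adjusted p = 0.00192) and 0.67 ± 0.099 (edgeR adjusted p = 0.000231) on the log2 scale. None of the J proteins of the lumen passed the test: the log2 fold changes were 0.21 ± 0.14 for Dnajb9, 0.11 ± 0.098 for Dnajb11 and 0.13 ± 0.12 for Dnajc3, with edgeR adjusted p = 0.216, 0.356 and 0.372. Of the 43 genes 5 serve this compartment's interior. With Hsp90b1 not called and Hspa13 higher, 1 of the 5 rose and 0 fell, beside 24.9% and 29.5% of all genes tested. Hspa5 (BiP), an Hsp70 of this compartment, lies outside the 43 and is given with the further network below.

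Of the 4 class C J proteins, which share little beyond the J domain, 1 was called, beside 54.3% of all genes tested. Dnajc7, which binds both Hsp70 and Hsp90, had 77.4, 62.2, 68.1 and 64.5 CPM in CLP, against 81.1, 88.2, 106 and 88.9 CPM in Sham. CLP was lower without overlap, although CLP replicate 1 came near Sham replicate 1, and the log2 fold change was -0.42 ± 0.11 (edgeR adjusted p = 0.0103). Its exons overlap those of Cnp (154 bases) and Nkiras2 (287 bases) on the other strand, whose summed counts were 2964 and 1340 in CLP and 6322 and 8349 in Sham. The sources used here do not say how the count treated strand. Dnajc2, of the ribosome, averaged 24.1 ± 3.09 CPM in CLP and 27.2 ± 2.71 in Sham, and Dnajc5, of secretory vesicles, 131 ± 4.49 CPM in CLP and 129 ± 4.95 in Sham (SD, n = 4 each). Neither passed, with edgeR adjusted p = 0.268 for Dnajc2 and 0.826 for Dnajc5.

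Among the exchange factors with a BAG domain, Bag3 rose while Bag2, Bag4 and Bag5 fell. Bag3, which links Hsp70 to selective autophagy, had 69.3, 91.0, 81.3 and 77.3 CPM in CLP, against 28.0, 27.1, 36.9 and 22.7 CPM in Sham. Its lowest CLP library was well above its highest Sham library, for a log2 fold change of 1.48 ± 0.15 (edgeR adjusted p = 2.6e-05). Bag4 (SODD), which also binds the death domain of TNF receptor 1, had 6.49, 6.23, 6.05 and 5.02 CPM in CLP, against 17.4, 20.0, 19.0 and 21.5 CPM in Sham. Both groups were tight and far apart, and the log2 fold change was -1.71 ± 0.13, the smallest edgeR adjusted p of the 43 genes (5.7e-06). Bag5, which carries several BAG domains, had 15.7, 12.3, 16.7 and 12.2 CPM in CLP, against 19.3, 22.4, 20.3 and 20.2 CPM in Sham. There was no overlap, and the log2 fold change of -0.53 ± 0.13 (edgeR adjusted p = 0.00693) shrank to -0.25 with a correction for GC content (edgeR adjusted p = 0.124). Bag2, an inhibitor of the ubiquitin ligase CHIP, was near the limit of detection, at 1.04, 0.314, 0.550 and 0.244 CPM in CLP, against 0.856, 1.22, 1.31 and 1.47 CPM in Sham. CLP replicate 1 lay among the Sham libraries. The log2 fold change of -1.14 ± 0.42 (edgeR adjusted p = 0.0416) lost its call without any library other than CLP replicate 1 and Sham replicate 1, with edgeR adjusted p = 0.0776 to 0.110, and under 3 other settings. Bag1 and Hspbp1, exchange factors of cytosolic Hsp70, were not called (edgeR adjusted p = 0.596 and 0.555), with log2 fold changes of 0.081 ± 0.12 and 0.098 ± 0.13.

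Of the adaptors that serve Hsp90 and Hsp70, Stip1 (Hop), which joins the 2 chaperones, had 117, 127, 131 and 115 CPM in CLP, against 60.3, 37.5, 49.6 and 60.3 CPM in Sham. Every CLP library was far above the Sham range, and the log2 fold change was 1.24 ± 0.15 (edgeR adjusted p = 6.9e-05). St13 (Hip), which holds Hsp70 in its ADP state, had 182, 208, 188 and 192 CPM in CLP, against 149, 136, 138 and 148 CPM in Sham. Its groups stood apart too, with a log2 fold change of 0.43 ± 0.096 (edgeR adjusted p = 0.00328), but total-count scaling turned it to -0.13 (edgeR adjusted p = 0.244). Ahsa1 (Aha1), the activator of the Hsp90 ATPase, had 34.2, 24.6, 26.1 and 25.8 CPM in CLP, against 39.0, 38.6, 42.3 and 41.2 CPM in Sham. Here CLP was lower, with replicate 1 nearest to Sham, and the log2 fold change was -0.54 ± 0.12 (edgeR adjusted p = 0.00318). Chordc1, an Hsp90-binding protein, was not called (log2 fold change of -0.17 ± 0.12, edgeR adjusted p = 0.242), at 38.6 ± 0.676 CPM in CLP and 43.4 ± 6.55 in Sham (SD, n = 4 each).

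**Figure D2:**
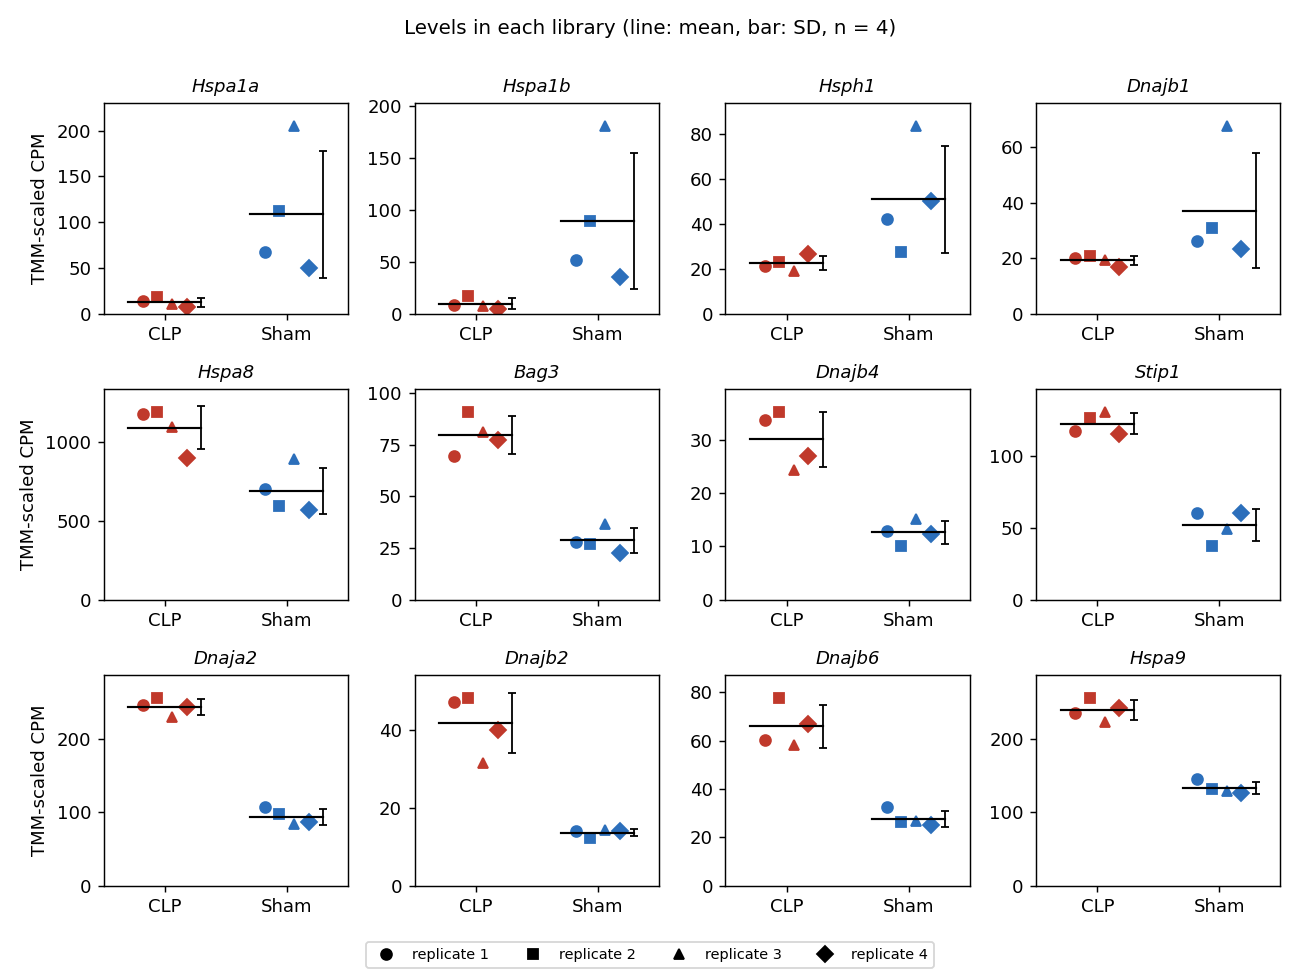
TMM-scaled CPM of 12 genes in each library, CLP (red) left of Sham (blue), with a line at the mean and a bar for the SD (n = 4) and a marker shape for each replicate number. The top row shows genes that fell, with the Sham replicate 3 triangle highest in all 4 panels. The lower rows show genes that rose, where the CLP points lie above the Sham points.

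Transcripts of the heat shock factors themselves did not pass: 0 of 2 were called by edgeR, DESeq2 or voom, and 0 had an unadjusted p under 0.05 in edgeR. Over all genes tested, edgeR called 54.3%, a share beside which a count over 2 genes says little. Hsf1 had 16.6, 22.0, 24.6 and 25.8 CPM in CLP, against 23.6, 22.8, 29.5 and 22.5 CPM in Sham. Hsf2, a partner of Hsf1, had 9.16, 17.2, 14.2 and 23.4 CPM in CLP, against 13.7, 13.5, 16.8 and 14.1 CPM in Sham. Both overlapped, and the spread was wider in CLP. The log2 fold changes were -0.14 ± 0.16 for Hsf1 (edgeR adjusted p = 0.452) and 0.13 ± 0.24 for Hsf2 (edgeR adjusted p = 0.652). Hsf1 protein is controlled mainly after transcription, and its activity was not measured here.

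Of the 43 genes 16 are known as heat-inducible, a label given with earlier results of these data known; it includes Hspa8, which is expressed constitutively and is raised further by heat. Of the 16, 7 fell (Hspa1a, Hspa1b, Hsph1, Hspa4l, Hspe1, Dnajb1 and Ahsa1), 4 rose (Hspa8, Dnajb4, Bag3 and Stip1) and 5 did not pass. These are 43.8% lower and 25.0% higher, beside 29.5% and 24.9% of all genes tested. Their median log2 fold change was -0.081. The other 27 genes divided into 7 that fell, 8 that rose and 12 that did not pass, with a median of 0.10. Among the 4 mitochondrial genes, Hspa9 rose while Dnaja3 and Hspe1 fell.

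**Figure D3:**
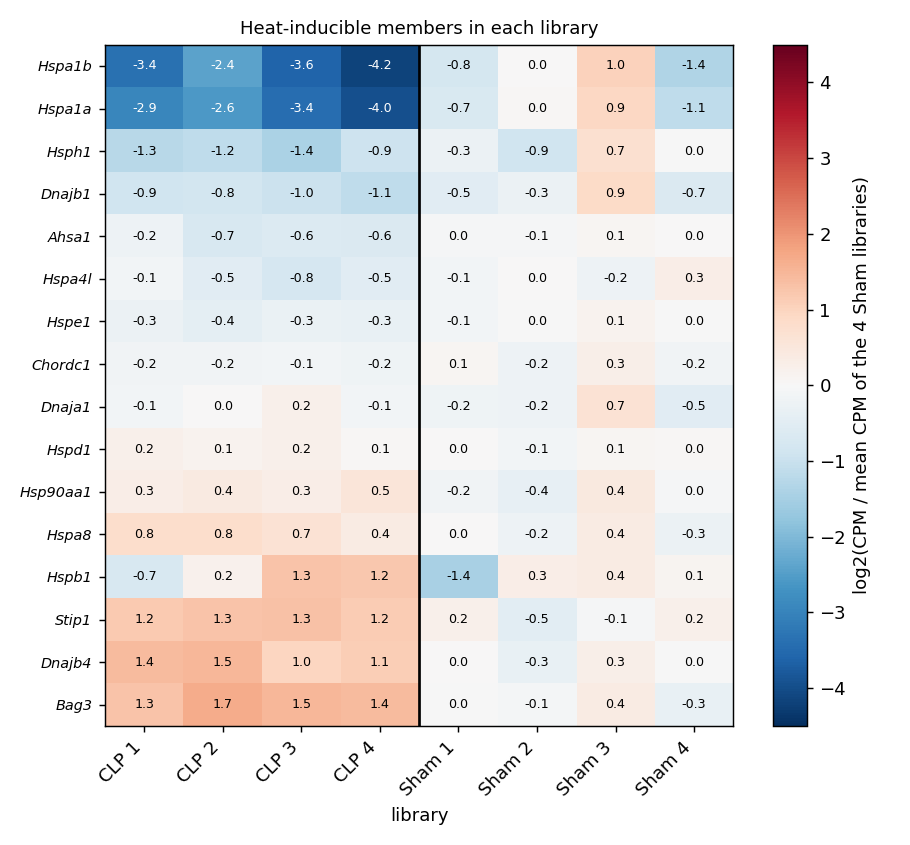
Level of the 16 heat-inducible genes in each library, as log2 of CPM over the mean CPM of the 4 Sham libraries, with CLP libraries on the left. Blue is below and red above that mean. Hspa1b and Hspa1a range from -4.2 to -2.4 in CLP, Bag3 from 1.3 to 1.7, and the Sham replicate 3 column is the highest Sham value for 14 of 16 genes.

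The spread within Sham was uneven over the genes. Sham replicate 3 was the highest Sham library for 14 of these 16 genes and for 7 of the other 27. How often that library was the highest over all genes was not counted. It exceeded the mean of the other Sham libraries 3.09-fold for Hspa1b, 2.69-fold for Hspa1a, 2.53-fold for Dnajb1, 2.09-fold for Hsph1 and 1.96-fold for Dnaja1. The coefficient of variation in Sham was 73.3% for Hspa1b, 64.1% for Hspa1a and 55.9% for Dnajb1. In CLP it was 54.6% for Hspa1b, 39.9% for Hspa1a and 8.80% for Dnajb1. Over the 40 members with at least 10 CPM the median was 11.1% in CLP and 10.6% in Sham. Over all 7924 genes with at least 10 CPM it was 14.8% in CLP and 10.0% in Sham. Sham replicate 3 also had the fewest counts (23311897), the highest TMM factor (1.28) and the lowest Kupffer cell marker sum of the 8 libraries (29866 CPM), and their part in its chaperone levels was not tested. Without that library, 13 of the 43 genes were higher and 12 lower. Over all 14915 genes then tested, 3572 were higher and 4004 lower.

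Immediate early genes, which also respond to the handling of cells, moved in both directions too. Jun, a subunit of the AP-1 factor, had 72.0, 79.6, 46.3 and 46.7 CPM in CLP, against 114, 177, 273 and 111 CPM in Sham. Like Hspa1a it was lower in every CLP library and highest in Sham replicate 3, with a log2 fold change of -1.46 ± 0.30 (edgeR adjusted p = 0.0021). Fos, its partner, fell by 2.41 ± 0.12 on the log2 scale (edgeR adjusted p = 1.1e-06), at 60.3 ± 2.76 CPM in CLP and 320.5 ± 41.4 in Sham (SD, n = 4 each). Unlike Jun, Fos was highest in Sham replicate 2 (364 CPM), with Sham replicate 3 at 345 CPM. Jun and Fos were the only genes of these 14 that fell (14.3%), while 8 rose (57.1%) and 4 did not pass. Over all genes tested, 29.5% were lower and 24.9% higher. Socs3 had the steepest rise, a log2 fold change of 3.91 ± 0.35 (edgeR adjusted p = 1.1e-05). It was at 2553 ± 321 CPM in CLP and 170 ± 96.5 in Sham (SD, n = 4 each). The 14 summed to 6892 to 8651 CPM in CLP and 2455 to 3119 in Sham, and Socs3 was the most abundant of them in CLP. The part of cell handling in the chaperone changes was not tested.

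Heat shock elements were counted in all promoter windows of the set. A RefSeq promoter window was found for 33 of the 43 genes. The paired element was present in 10 of the 14 heat-inducible genes with a window and in 1 of the 19 others. The 3-unit form was present in 4 of the 14 and 1 of the 19. Some genes have more than 1 window, and the 33 genes had 43 windows. Of these windows 13 held the paired form and 7 the 3-unit form, beside 15.1% and 0.603% of all windows. The windows are not independent, so some elements are counted more than once. Dnajb6 and Hsph1 each have overlapping windows with the same element, Hspd1 and Hspe1 share a stretch, and the Hspa1 copies are identical in it. Carriers of the paired form comprised 4 genes that fell (Hspa1a, Hspa1b, Hsph1 and Hspe1), 3 that rose (Bag3, Dnajb4 and Dnajb6) and 4 that did not pass (Hspd1, Hspb1, Dnaja1 and Chordc1). The CCAAT box (CCAAT or ATTGG) was present in 16 of the 33 genes. Counted by window it was in 18 of the 43, beside 37.4% of all windows. TATAAA, read on both strands, was in 1 of the 33 genes and 1 of the 43 windows, beside 13.6% of all windows.

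The genes were ordered by level per kilobase of exon. Hsp90ab1 stood at 263 CPM per kb in CLP and 221 in Sham, Hspa8 at 253 in CLP and 159.7 in Sham, and Hsp90b1 at 209.9 in CLP and 196 in Sham. These held the first 3 ranks of the 43 genes in both groups. Hspa1a stood at 4.18 CPM per kb in CLP and 36.6 in Sham, rank 33 in CLP and rank 4 in Sham. Hspa1b was rank 36 in CLP and rank 6 in Sham. These 2 genes share reads, so each rank depends on how the reads were divided. Their sum (21.9 ± 9.96 CPM in CLP and 198 ± 135 in Sham) was not ranked. Bag3 stood higher in CLP, at 31.1 CPM per kb against 11.2 in Sham, which is rank 11 in CLP and rank 22 in Sham. Hsf1 and Hsf2 were low in both groups, at 3.14 and 1.66 CPM per kb in CLP and 3.47 and 1.51 in Sham.

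The chaperone network outside the 43 genes was read from the same fit. Of 83 further genes 72 could be tested, with 21 higher (29.2%), 15 lower (20.8%) and a median log2 fold change of 0.050. Over all genes tested 24.9% were higher and 29.5% lower, the shares beside which each count of the network below is set, with a median of -0.040. The cytosolic chaperonin TRiC, which folds actin and tubulin, had 7 of 8 subunit genes higher and 0 lower. Its subunit Tcp1 averaged 132 ± 6.32 CPM in CLP and 72.7 ± 7.70 in Sham (log2 fold change of 0.86 ± 0.10, with edgeR adjusted p = 6.7e-05). Cct8 averaged 175 ± 4.69 CPM in CLP and 110.1 ± 6.04 in Sham (log2 fold change of 0.67 ± 0.092, with edgeR adjusted p = 0.000151). Prefoldin, which delivers clients to TRiC, had 0 of 6 subunit genes called by edgeR, 1 with an unadjusted p under 0.05, and 1 called by DESeq2 and 0 by voom. The groups lay close there, with log2 fold changes between -0.050 and 0.37.

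Further Hsp70 and Hsp90 genes numbered 3 higher of 5, among them Hspa5 (BiP), the Hsp70 of the endoplasmic reticulum, at 1535 ± 146 CPM in CLP and 934 ± 81.8 in Sham (log2 fold change of 0.72 ± 0.12, with edgeR adjusted p = 0.000609), and the scarce Hspa12a (log2 fold change of 0.97 ± 0.28, with edgeR adjusted p = 0.0134). Exchange factors outside the set numbered 3 higher of 4, with log2 fold changes of 0.95 for the mitochondrial Grpel2 and 0.46 for Bag6. Further Hsp90 co-chaperones divided into 2 higher and 4 lower of 13. Ptges3 (p23), which closes the Hsp90 cycle, rose by 0.95 ± 0.11 and Unc45a, a myosin chaperone, by 0.71 ± 0.12 on the log2 scale. Of those that fell, Ttc4 (by 1.13 ± 0.18) and the phosphatase Ppp5c (by 0.82 ± 0.14) had the smallest p. The steepest fall was that of Fkbp5, by 1.51 ± 0.26 (edgeR adjusted p = 0.000658). Fkbp5 was at 250 ± 92.5 CPM in CLP and 713 ± 169 in Sham. Among 28 further J proteins tested, 6 rose, with Dnajb5 (log2 fold change 1.21 ± 0.11) and Dnajc12 (1.17 ± 0.18) at the smallest p, and 10 fell. Dnajc28 had reads in CLP replicate 4 alone of the CLP libraries, at 0.0975 CPM, against 1.65, 1.86, 1.68 and 2.93 CPM in Sham, and Dnajc18 fell by 1.05 ± 0.15. Of the 4 further small heat shock genes that could be tested, 0 were called by edgeR, DESeq2 or voom, and 0 had an unadjusted p under 0.05. Of 3 mitochondrial proteases and unfoldases, Clpx fell by 0.78 ± 0.13 on the log2 scale.

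**Figure D4:**
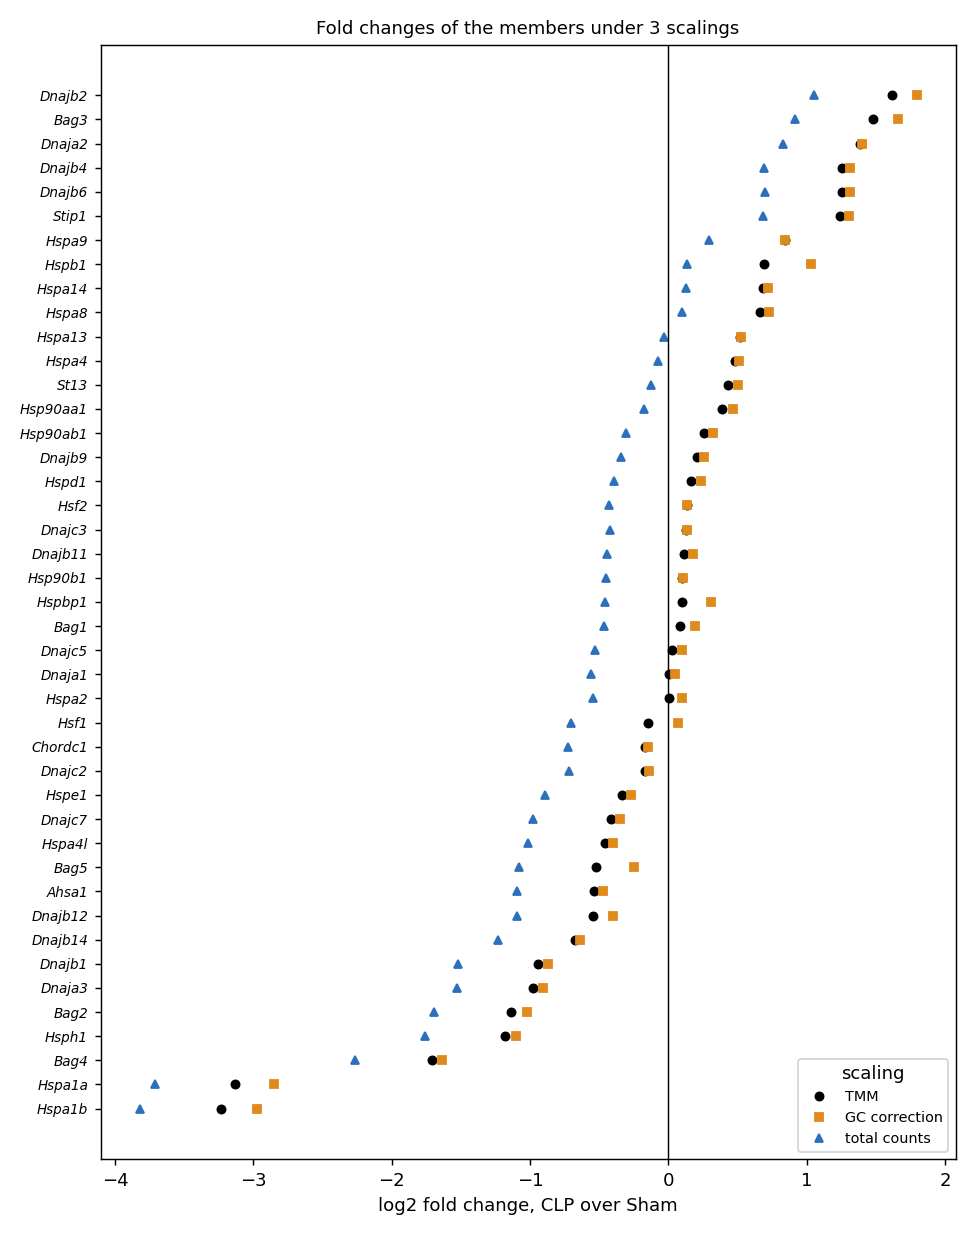
Log2 fold change of CLP over Sham for the 43 genes under TMM scaling (black), with a GC correction (orange) and with total counts alone (blue). The blue points are shifted to the left as a body, the order of the genes is nearly kept, and the genes from Dnajb2 down to Hspa8 stay to the right of 0.

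All directions above are relative to TMM scaling, whose factors were 0.801 to 0.837 in CLP and 1.16 to 1.28 in Sham. With total counts alone the median of all genes was -0.60, and 7 of the 43 genes were higher and 26 lower. The 7 were Hspa9, Dnaja2, Dnajb2, Dnajb4, Dnajb6, Bag3 and Stip1, and all 14 genes that fell under TMM fell there too. With the GC correction 15 were higher and 11 lower, so that 57.7% of the called genes were higher, against 46.2% under TMM alone. Over all genes tested, the share higher among called genes moved likewise, to 52.8% with the GC correction from 45.8% under TMM alone.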

How the data were processed

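The deposited table holds whole-number read counts for 55414 Ensembl genes in 8 libraries (23311897 to 28724875 counts each), as the authors made them. Per the labels' protocols, RNA came from an Aurum kit and stranded TruSeq libraries were run on an Element AVITI. The submitters' processing notes name the mouse assembly mm39 and the tools FastQC, featureCounts, DESeq2 and STAR 2.7.10b. Tool settings, annotation release and strand handling: not given in the sources used here.

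After a low-count filter (filterByExpr) and TMM scaling, CLP was set against Sham in edgeR 4.0.16 (R 4.3.3) with the robust quasi-likelihood test, surgery being the model's term. Benjamini-Hochberg adjustment ran over 14655 genes, and an adjusted p under 0.05 was called. CPM is after TMM, SD is over libraries, and SE is the size of a log2 fold change divided by the square root of F. For marker sums and other library measures an exact permutation test, two-sided, used 70 assignments of the libraries (smallest p 0.0286). Alternatives were DESeq2 1.42.0, voom of limma 3.58.1, other scalings, other filters, a GC correction, a replicate block, and each library left out. On simulated counts edgeR recovered 10, 37, 47 and 50 of 50 genes planted at 1.5-, 2-, 4- and 8-fold among 14475, with 6 false calls.

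Symbols, exon lengths and exon overlaps came from GENCODE M21 on GRCm38. Promoter sequences came from RefSeq on GRCm38.p6, which is not the assembly of the counts. The 43 genes, the further network lists, the heat-inducible label and the marker lists were chosen with earlier results of these data known. Any of the 43 could be named, as could the 2 called genes with the smallest p in each direction of each network list, the most abundant gene of each marker list and the handling genes. The summed Hspa1 row with a replicate block was added after the data were seen.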

Additional observations from a re-analysis of the deposited data

Results flagged for a closer look

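In 5 of 86 groups of 4 libraries tested, the highest library lay farther from its nearest neighbour, relative to the group's range, than Dixon's 95% critical value allows, and chance flags about 1 group in 20. Of these values, 3 are from Sham replicate 3. Dnajb1 was at 67.7 CPM in that library and at 23.3 to 30.7 CPM in the other Sham libraries. Hsf1 was at 29.5 CPM there, against 22.5 to 23.6 CPM in the others, and Hsf2 at 16.8 CPM, against 13.5 to 14.1 CPM. The other flagged values are from CLP replicate 1, where Hsp90b1 was at 902 CPM, with 826 to 829.7 CPM in the other CLP libraries, and Ahsa1 at 34.2 CPM, with 24.6 to 26.1 CPM.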

How the results depend on the processing

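Total-count scaling changed most: all genes gave 1715 higher and 8292 lower, the 43 genes 7 and 26, and the further network 4 and 44. It turned the log2 fold changes of Hspa2 (-0.54), Hspa13 (-0.029), Hspa4 (-0.074), Hsp90aa1 (-0.18), Hsp90ab1 (-0.30), Hsp90b1 (-0.45), Hspd1 (-0.39), Dnaja1 (-0.56), Dnajb9 (-0.34), Dnajb11 (-0.44), Dnajc3 (-0.42), Dnajc5 (-0.53), Bag1 (-0.47), Hspbp1 (-0.46), St13 (-0.13) and Hsf2 (-0.43). With no low count filter Hspa2 (-0.043), Dnaja1 (-0.045) and Dnajc5 (-0.030) changed sign, with voom Hspa2 (-0.065), and with the GC correction Hsf1 (0.070); the cause was not tested. With a library left out, the log2 fold change ranged from -0.39 to 0.20 for Hspa2, -0.12 to 0.32 for Dnaja1, -0.017 to 0.17 for Bag1, -0.017 to 0.16 for Hspbp1 and -0.100 to 0.33 for Hsf2. Of the genes that changed sign, TMM scaling had called Hspa13, Hspa4 and St13, and total counts called 9 others lower. Under all other alternatives the same 12 genes were again among the 12 to 15 called higher, 11 to 14 were lower, and DESeq2 gave 15 higher and 14 lower. The Hspa1 pair stayed between -3.76 and -2.62.

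Replicate numbers did not pair the libraries: same-numbered CLP and Sham libraries deviated together with r = 0.17, -0.12, 0.13 and -0.085, and none correlated best with its own number. With a replicate block 12 of the 43 genes were higher and 13 lower, Hspa2 turned to -0.072, Bag2 lost its call (edgeR adjusted p = 0.0596) and the Hspa1 pair was at -3.02. Bag2 and Hspb1, under 2 CPM in every library, are limited most by depth.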
